A study of Rattus norvegicus with 6 samples.

Results

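ROSE199 cells that had been stably transfected with an empty expression vector were compared with untreated ROSE199 cells on a single spotted 2-colour array. ROSE199 is a line derived from rat ovarian surface epithelium, the single cell layer that covers the ovary. The transfected cells carried the plasmid pEF6 without an insert and were selected in medium with 10 µg/ml blasticidin, an antibiotic that blocks protein synthesis and kills cells that lack the vector's resistance gene. The other RNA came from untreated ROSE199 cells, grown in the same medium with 10% serum and without plasmid or drug. The labels do not say whether the transfectants were a pool or 1 clone. The comparison therefore holds what plasmid, transfection, drug and the outgrowth of resistant cells did together, and these cannot be told apart. RNA of the empty-vector cells was labelled with Cy5 and that of untreated cells with Cy3, from 20 µg each.

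All 311 features that the array names were taken as members, from 1 of the 6 arrays of the series. The other arrays carried ROSE199 cells with HMGA2 in the same vector and under the same drug (2 arrays, dyes swapped), and RAS-transformed ROSEA25 cells with siRNA against EGFP (1 array) or against HMGA2 (2 arrays, dyes swapped). Untreated ROSE199 RNA was on every array. Since 1 array stands for the empty-vector cells, there is no replicate culture and no p-value, and each value below describes this pair of RNA preparations. All 5 ovarian surface epithelium markers listed for this array (DOC-2, E-cadherin, Megakaryocyte potenciating factor, P-cadherin and WT1) were above blank spots in both channels, as were all 4 fibroblast and smooth muscle markers (Thy-1, Collagen alpha, SM22 and PDGF receptor). So were 310 of all 311 features, so being above blank does not tell which cell type the line is.

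Foreign DNA inside a cell is sensed by pattern recognition receptors, which can switch on type I interferon, interferon-stimulated genes and chemokines that attract lymphocytes. Drug selection keeps the few cells that survive, so a stable line can differ from its parent for reasons other than the plasmid's cargo. Ovarian surface epithelial cells in culture make much extracellular matrix, including fibrillar collagen, the enzyme lysyl oxidase that crosslinks it and the adhesive glycoprotein thrombospondin. An empty-vector line is the usual control for a gene carried by the vector, and any such difference from the parent is part of that control.

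Mama is the older name of Lgals3bp in the RefSeq rat gene table, a secreted scavenger-receptor protein that interferon induces. Mob-1 is the name under which a rat homologue of the chemokine IP-10 (Cxcl10), an attractant of T cells that interferon induces, was cloned from RAS-transformed cells. The RefSeq table also lists this alias under Sgms1, a sphingomyelin synthase, and the probe's own sequence was not used here, so the pairing with Cxcl10 rests on that background. Windows from 250 bases before to 50 bases after the gene's start are shown (RefSeq, GRCr8), because these features had the highest ratios that could be paired with a gene. Lgals3bp lies on the minus strand at chr10:104127799-104128098 and Cxcl10 on the plus strand at chr14:15988816-15989115. Capitals mark matches to GAAANNGAAA, the core of the interferon-stimulated response element, and to GGGANNTTCC, a form of the NF-kappaB site, on either strand.
Lgals3bp: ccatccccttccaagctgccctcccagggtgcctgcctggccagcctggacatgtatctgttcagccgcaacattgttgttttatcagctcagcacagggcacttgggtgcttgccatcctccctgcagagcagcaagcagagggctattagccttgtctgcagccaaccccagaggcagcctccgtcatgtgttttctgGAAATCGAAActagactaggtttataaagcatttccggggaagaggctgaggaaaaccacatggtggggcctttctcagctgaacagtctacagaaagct
Cxcl10: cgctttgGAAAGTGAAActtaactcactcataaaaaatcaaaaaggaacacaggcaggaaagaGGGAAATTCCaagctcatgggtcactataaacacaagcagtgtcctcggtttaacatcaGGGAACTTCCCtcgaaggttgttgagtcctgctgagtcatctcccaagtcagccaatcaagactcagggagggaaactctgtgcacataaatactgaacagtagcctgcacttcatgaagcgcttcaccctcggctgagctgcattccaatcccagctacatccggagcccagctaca
The Lgals3bp window held 1 match to the interferon element, at bases 201 to 210. The Cxcl10 window held 1 as well, at bases 8 to 17, and 3 matches to the NF-kappaB form, of which those starting at bases 123 and 124 overlap on opposite strands. Of 33469 rat windows of this kind, 3.92% held the interferon element and 1.3% the NF-kappaB form. The Sgms1 window held neither. A match of letters is a description and does not show that a factor binds there.

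The empty-vector cells differed little from their parent at most features. The log2 ratio of empty vector over untreated ROSE199 lay within 0.5 of 0 at 280 of the 311 features (90%), with a median of 0.02, quartiles of -0.18 and 0.17 and an SD over features of 0.38. At least 2-fold higher were 6 features (1.93% of 311), and at least 2-fold lower were 4 (1.29%). At a limit of 1.5-fold the counts were 12 higher (3.86%) and 9 lower (2.89%). In either direction 3.22% of all features passed 2-fold and 6.75% passed 1.5-fold, so a list of 8 to 22 features with 0 or 1 member past a limit is not set apart from the whole array by that count. The highest ratio, 3.07, was more than double the size of the lowest, -1.40.

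**Figure D1:**
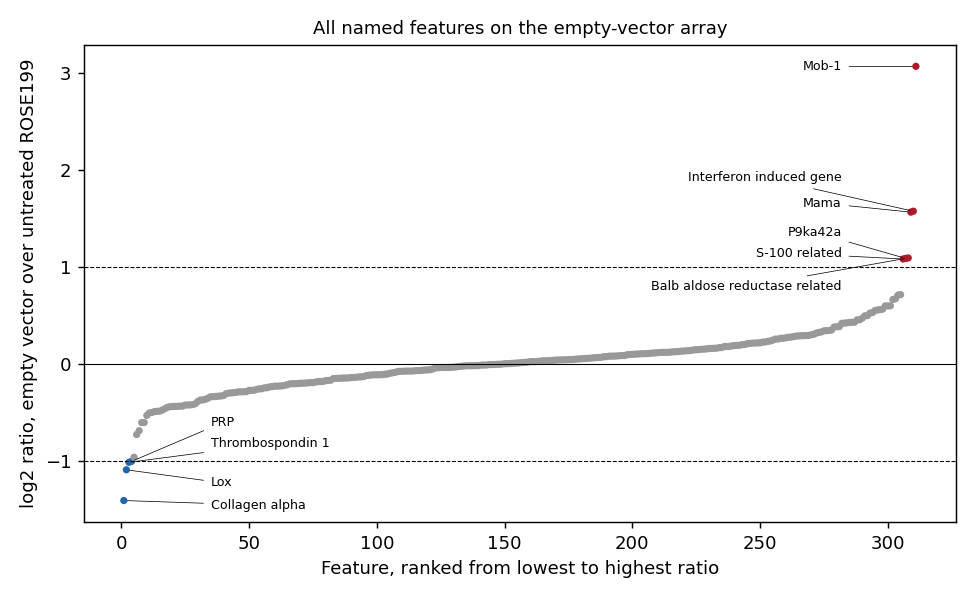
All 311 features are ranked from the lowest to the highest log2 ratio of empty vector over untreated ROSE199 on 1 array, with dashed lines at 2-fold. The 6 features past 2-fold higher (red) and the 4 past 2-fold lower (blue) stand at the ends of a curve that is flat for the 280 features within 0.5 of 0.

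The technical spread behind these ratios could be measured in several ways on the arrays at hand. Spots of 1 feature had a median SD of 0.06 on the log2 scale (95% of features under 0.17), but 310 features had all their spots in 1 subgrid, so this SD leaves out differences across the slide. Beta actin, spotted in all 16 subgrids, had subgrid means between 0.17 and 0.33 and an SD of 0.07 over 322 spots. The dye-swapped arrays of the HMGA2 and siHMGA2 groups gave an SD of 0.23 for the ratio of a single array. The labels do not say whether both arrays of a pair used the same RNA. Of 22 features past 2-fold on HMGA2 replicate 1, 19 were past it in the same direction on its swap, and of 54 on siHMGA2 replicate 1, 46 were. The empty-vector array has no swap, and no value here covers the spread between cultures.

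Dye effects of single features were visible in the swapped pairs. In both pairs 9 features read on opposite sides of 0 with a dye effect of at least 0.3 in the same direction, and for 8 of these Cy5 was the weaker dye. All 8 were also negative with the empty vector in Cy5, against 147 of all 311 features, among them Ha-ras (-0.47), UPA (-0.53), SSECKS (-0.48), GEF-H1 (-0.43) and RET (-0.42). The other, P27 kip, had the opposite dye effect (0.38 and 0.32) and was at -0.09 with the empty vector. With the dye effect of both pairs taken off, the ratio of Ha-ras was at the other sign, up to 0.84. None of the 9 passed 2-fold on the empty-vector array.

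Chemokine and interferon-linked features led the higher side. Of the 10 members of the interferon and cytokine list, 3 were at least 2-fold higher and none lower, against 1.93% of all features, and 7 were above 0. The list's median was 0.21, against 0.02 for all features. The members that passed were the 3 highest features of the array. The list was chosen with earlier results of these data known, so its share past 2-fold describes these members and tests nothing.

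Mob-1 had a net signal of 3510 with the empty vector and 404 in untreated ROSE199 (background-subtracted intensity, mean of 4 spots). Its log2 ratio after loess was 3.07 (spot SD 0.19, spots between 2.78 and 3.20), an 8.39-fold higher signal. Interferon induced gene, which the array gives under this general name only, had 4540 with the empty vector and 1435 in untreated cells, a log2 ratio of 1.58 (spot SD 0.03, 2.98-fold). Mama had 8614 with the empty vector and 2644 in untreated cells, a log2 ratio of 1.57 (spot SD 0.02, 2.96-fold). For all 3 the channels differed at every spot, the lowest spot ratios being 2.78, 1.56 and 1.54.

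The other members of the list stayed under 1.5-fold. CSF-1, the growth factor of macrophages, was highest among them at 0.53, followed by Schlafen2 (0.29), a member of a family that interferon induces in mouse cells. RPT-1r was at 0.12 and NF-kappaB at 0.10. The receptor-linked kinase JAK1 (-0.06), the transcription factor STAT5a1 (-0.08) and TANK (-0.20), an adaptor of the kinases that act upstream of interferon, lay just below 0. With Beta actin set to 0 in place of loess, the list's median was -0.31, against -0.43 for all features.

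**Figure D2:**
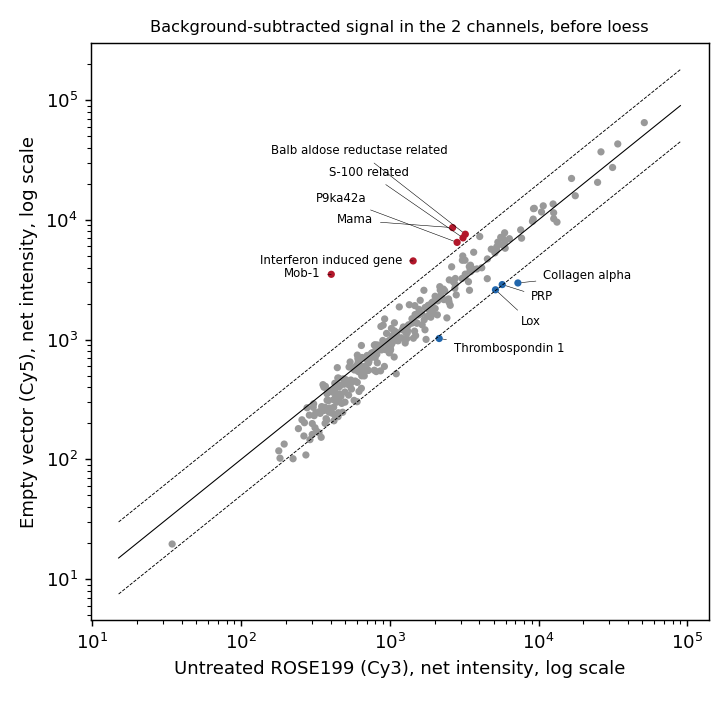
Net intensity of each feature with the empty vector (Cy5, vertical) is plotted against that in untreated ROSE199 (Cy3, horizontal), both on log scales, before loess, with equality as a solid line and 2-fold as dashed lines. Mob-1, at 3510 against 404, lies farthest from the line, and the features past 2-fold after loess are coloured (red higher, blue lower).

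Matrix features led the lower side. Of 10 members of the matrix and crosslinking list, 3 were at least 2-fold lower and none higher, against 1.29% of all features. These were the 3 lowest features of the array, and 6 members were below 0. This list too was chosen with earlier results of these data known, so its share past 2-fold tests nothing. The list's median was -0.34, and -0.57 with the dye effect of the swapped pairs taken off. It was -0.72 with Beta actin set to 0, where the median of all features was -0.43. Fibroblast and smooth muscle markers share Collagen alpha with this list and had a median of -0.17, with 1 of 4 members past 2-fold. They did not move together: SM22 (-0.44) was also below 0, but Thy-1 (0.10) and PDGF receptor (0.35) were above it.

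Collagen alpha, a chain of a collagen that the array does not specify, had a net signal of 2972 with the empty vector and 7266 in untreated ROSE199. Its log2 ratio was -1.40 (spot SD 0.05, 5 spots), a 2.64-fold lower signal. Lox, the lysyl oxidase that crosslinks collagen and elastin, had 2606 with the empty vector and 5135 in untreated cells, a ratio of -1.09 (spot SD 0.03). Thrombospondin 1, an adhesive and anti-angiogenic glycoprotein, had 1021 with the empty vector and 2148 in untreated cells, a ratio of -1.01 (spot SD 0.11), with some spots inside the 2-fold limit (-1.15 to -0.90). The collagen and lysyl oxidase ratios were past the limit at all their spots.

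Among the matrix features that did not pass, Osteonectin, a collagen-binding glycoprotein, was at -0.43. T16, matched to the fibulin Efemp1 by its RefSeq alias, was at -0.42, and the microfibril protein Fibrillin-1 at -0.25. T16 was at -1.04 with the dye effect of both swapped pairs taken off, but the pairs disagreed on that effect (0.24 in the HMGA2 pair and 1.0 in the siHMGA2 pair). Fibronectin (0.06), Tenascin C (0.16), Agrin (0.07) and the lysyl oxidase relative LOXRP (0.01) lay near 0 or above it.

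The remaining features past 2-fold belong to other groups. Balb aldose reductase related, by its name an enzyme that reduces aldehydes, had 7587 with the empty vector and 3218 in untreated cells, a log2 ratio of 1.10 (spot SD 0.03). P9ka42a, whose name joins RefSeq aliases of S100a4, a calcium-binding protein of motile and mesenchymal cells, had 6486 with the empty vector and 2834 in untreated cells, a ratio of 1.09 (spot SD 0.07). S-100 related, another feature of this protein family, had 7073 with the empty vector and 3105 in untreated cells, a ratio of 1.08 (spot SD 0.10). Over the 6 arrays the ratios of P9ka42a and S-100 related differed by 0.01 to 0.53, and cross-hybridization between them was not tested.

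PRP, whose name matches 4 rat genes in RefSeq and is left unnamed here, had 2881 with the empty vector and 5699 in untreated cells. Its log2 ratio of -1.0 (spot SD 0.22, spots between -1.17 and -0.61) stood at the limit itself. Just outside it was Ahnak, a giant scaffold protein at the cell membrane, at -0.96, with 518 with the empty vector and 1104 in untreated cells. The nearest features outside the limit on the higher side were WDNM2 (0.72) and Serum inducible kinase (0.71).

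HMGA2 transfectants passed through the same vector and the same drug, so their ratios over ROSE199 are set beside those of the empty-vector cells. All these arrays have untreated ROSE199 as the other channel, and those with HMGA2 were quantified on another day, so no difference between them was tested. Mob-1 was at 3.07 with the empty vector, and at 1.48 and 1.20 on the HMGA2 arrays. Mama was at 1.57 with the empty vector, and at 0.96 and 1.12 with HMGA2. Interferon induced gene was at 1.58 with the empty vector, and at 0.93 and 0.65 with HMGA2. All 3 were above 0 on each of these arrays.

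Collagen alpha was at -1.40 with the empty vector, and at -2.95 and -2.78 with HMGA2. Thrombospondin 1 was at -1.01 with the empty vector, and at -1.17 and -2.03 with HMGA2. Lox was at -1.09 with the empty vector, and at -0.57 and -0.75 with HMGA2. These 3 matrix features were below 0 in both transfectants, collagen farther with HMGA2 and Lox farther with the empty vector. Mob-1, Collagen alpha and Thrombospondin 1 were past 2-fold on both HMGA2 arrays too. Of all 311 features, 19 were past 2-fold in the same direction on both HMGA2 arrays. A shared sign was not tested, since the arrays have the ROSE199 channel in common.

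The other features past 2-fold with the empty vector did not share a direction with both HMGA2 arrays. Balb aldose reductase related was at 1.10 with the empty vector, and at -0.93 and -0.92 with HMGA2. P9ka42a was at 1.09 with the empty vector, and at -0.09 and -0.03 with HMGA2, while S-100 related was at 1.08 and at -0.04 and -0.05. PRP was at -1.0 with the empty vector, and at -0.15 and 0.09 with HMGA2.

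**Figure D3:**
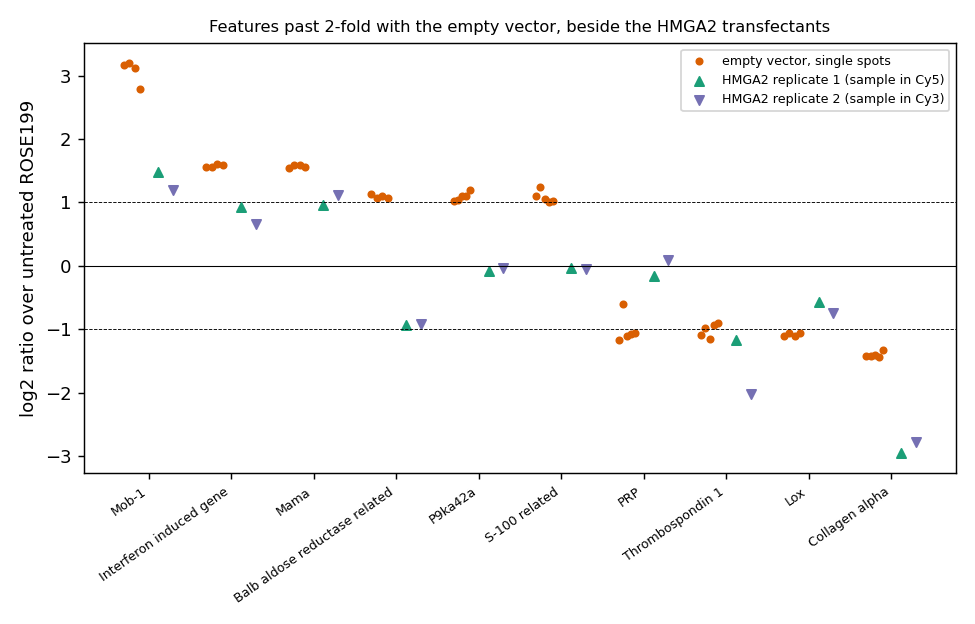
Log2 ratios over untreated ROSE199 of the 10 features past 2-fold with the empty vector: each circle is 1 spot of the empty-vector array, and the triangles are the feature means on the 2 HMGA2 arrays, with dashed lines at 2-fold. Mob-1, Interferon induced gene and Mama lie above 0 on all 3 arrays and Thrombospondin 1, Lox and Collagen alpha below 0, while Balb aldose reductase related has opposite signs.

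After loess, the genes that the study as a whole turns on were near their ROSE199 level. HMGI-C, the array's name for the chromatin protein HMGA2, had a net signal of 118 with the empty vector and 179 in untreated cells, and its ratio after loess was 0.26 (spot SD 0.10). The blank limits were 46.4 in Cy5 and 108 in Cy3, so this ratio has low signal behind it, and it was at -0.69 with Beta actin set to 0 in place of loess. K-ras was at 0.03 (spot SD 0.15), with 460 with the empty vector and 547 in untreated cells. After loess neither differed by as much as 1.5-fold, but HMGI-C did with Beta actin set to 0. In the deposited ratios HMGI-C was at -0.26, so its sign depends on the centring.

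The RAS-MAPK feedback and early response list, which holds transcription factors and phosphatases that the pathway induces, had 0 of 22 members past 2-fold, against 3.22% of all features, and a median of 0.02, like that of all features. Serum inducible kinase was highest (0.71), followed by the hyaluronan receptor CD44 (0.53) and TDAG51 (0.50). JunB (-0.49) and the phosphatase Mkp3 (-0.30) were lowest, and c-myc was at -0.10, Fra-1 at -0.01 and Egr-1 at 0.11.

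Of 12 cell cycle features 0 passed 1.5-fold, against 6.75% of all features, and their median was 0.09. The proliferation marker Ki-67 was highest at 0.42, DNA polymerase epsilon was at 0.29 and TOPO II at 0.31. CyclinD1 was at 0.09, and the inhibitors P27 kip, P16 (ink4a) and P15 ink4b were at -0.09, 0.02 and -0.13. Of the 12 members, 9 lay above 0, against 164 of all 311 features.

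Stress and translation features are of interest beside a drug that acts on the ribosome. Of 13 stress and apoptosis features 0 passed 2-fold, against 3.22% of all features. GADD153, a transcription factor of the unfolded protein response, was highest at 0.60. Over 12 other ways of processing the array, GADD153 ranged from -0.06, with Beta actin set to 0, to 0.71. The chaperone ORP150 was at -0.28 and P5 protein, a disulfide isomerase, at -0.26, so features of the same response lay on both sides of 0. P53 was at 0.24 and BCL-2 at 0.01. Of the translation features, the ribosomal protein S9 was at 0.17, the nucleolar HNOP56 at 0.01 and P67, matched to the methionine aminopeptidase Metap2, at 0.67.

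Secreted regulators had 0 of 13 members past 2-fold, against 3.22% of all features, and 1 past 1.5-fold, against 6.75%, namely Follistatin related protein at -0.68. TSC36, a follistatin-like protein that TGF-beta induces, was at -0.33, the stem cell factor MGF at -0.33 and IGFPBP at -0.27. The TSC36 spots ran from -0.49 to 0.06. Neither TSC36 nor Follistatin related protein matched a RefSeq gene by name, and whether they stand for the same gene was not checked. FGF-2 (0.35), Granulin (0.43) and the matricellular Cyr61 (0.33) were the highest of this list, whose median was -0.14. Over the 12 other ways of processing, FGF-2 ranged from -0.39 to 0.41 and Cyr61 from -0.10 to 0.39, so their signs are not settled. Granulin ranged from 0.06 to 0.485.

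Actin and contractile features had a median of -0.13, with 1 of 13 past 2-fold (P9ka42a), against 3.22% of all features. SM22, an actin-binding protein of smooth muscle, was at -0.44, the tropomyosin TPM2 at -0.37, Rnd3-Rho8 at -0.50 and RhoA at -0.37. Alpha actinin (-0.03) and Caldesmon (0.15) were near 0. Proteases and their inhibitors had 0 of 8 past 1.5-fold, against 6.75% of all features, with MMP10 at 0.04, MMP-3 at -0.07 and PAI1 at 0.12.

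Of the metabolic and redox enzymes, 1 of 8 passed 2-fold, against 3.22% of all features, namely Balb aldose reductase related. The polyamine enzymes ODC1 (0.46) and S-AMD1 (0.38) were next, and Glucose transporter was lowest at -0.44. Cox2, which makes prostaglandins on stimulation, was at 0.19, Cyclooxygenase 1 at -0.11 and PS-PLA1 at -0.23. Of the epithelial markers, E-cadherin was at 0.23, P-cadherin at 0.18, WT1 at -0.07, Megakaryocyte potenciating factor at -0.30 and DOC-2 at -0.33. None passed 1.5-fold, against 6.75% of all features. Their median was -0.07, and -0.25 with the dye effect of both swapped pairs taken off (all features -0.01). For P-cadherin the pairs disagreed on that effect (0.002 and 0.87). With Beta actin set to 0 the median of these markers was -0.36 (all features -0.43).

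**Figure D4:**
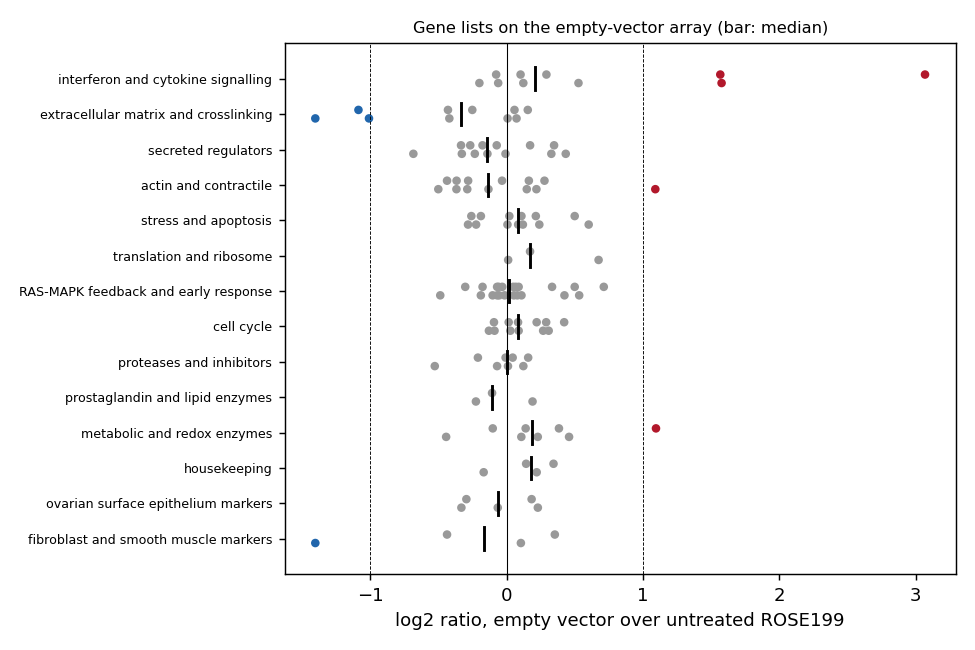
Each row is a gene list, each dot the log2 ratio of 1 feature (empty vector over untreated ROSE199, 1 array) and each bar the list's median, with red and blue for features past 2-fold. The interferon and cytokine list holds 3 features past 2-fold higher and the matrix list 3 past 2-fold lower. Of all features 3.22% passed in either direction, but the lists were chosen with earlier results known, so these shares test nothing.

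The array was centred by loess over all features but Beta actin, not on housekeeping features. GAPDH was at 0.34, Beta actin at 0.22, Alpha tubulin at 0.14 (4 saturated spots, so its ratio is a poor measure) and HPRT at -0.17. Before loess the median log2 ratio was -0.38 among the 78 dimmest features and 0.13 among the 78 brightest, and after it -0.01 and 0.02. Of the 10 features past 2-fold, 8 were among the 78 brightest and 0 among the 156 dimmest.

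Of the 10 features, 4 (Mob-1, Interferon induced gene, Mama and Collagen alpha) were past 2-fold under all 12 processing alternatives. Their log2 ratios ranged from 2.43 to 3.24 for Mob-1, 1.24 to 1.75 for Interferon induced gene, 1.37 to 1.80 for Mama and -1.60 to -1.07 for Collagen alpha. Balb aldose reductase related and Lox passed under 10, P9ka42a under 9, S-100 related under 8, Thrombospondin 1 under 7 and PRP under 6. Among the 12 is the limit to features above blank in both channels. It leaves these ratios unchanged, so all 10 passed it by construction. With the dye effect of both swapped pairs taken off, P9ka42a was at 0.82, S-100 related at 0.95 and Thrombospondin 1 at -1.55.

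**Figure D5:**
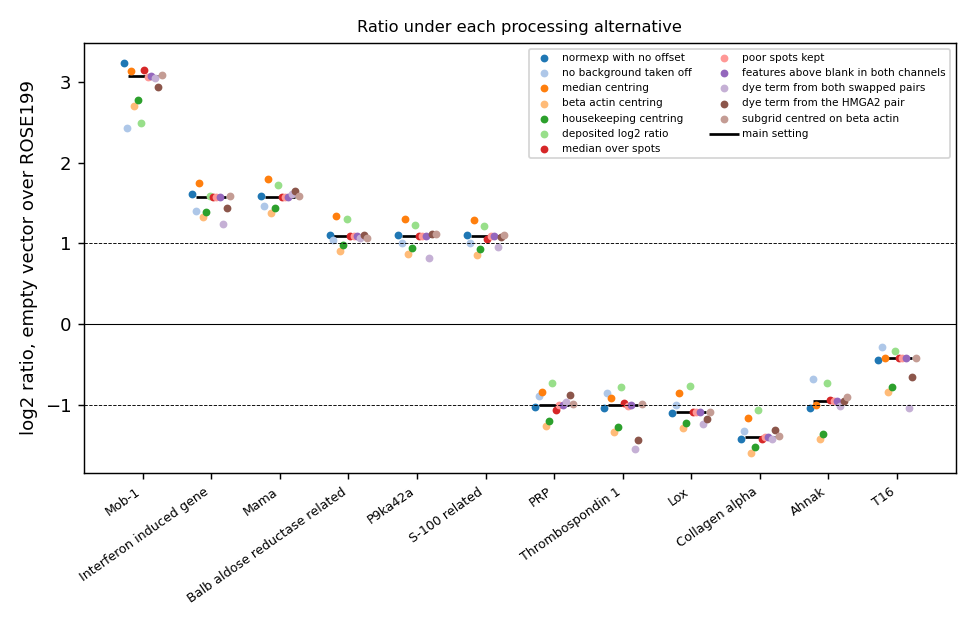
Log2 ratios of empty vector over untreated ROSE199 under each of 12 processing alternatives (dots) and in the main setting (bars), for the 10 features past 2-fold and for Ahnak and T16, with dashed lines at 2-fold. Every dot of Mob-1, Interferon induced gene, Mama and Collagen alpha lies past 2-fold, while each other feature has dots on both sides of a 2-fold line.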

How the data were processed

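The deposited quantification file of each array gives the mean signal intensity and the median local background intensity of each spot in both dyes, per the file headers (version 5). A second, deposited table gives log2 ratios. Their direction, sample over ROSE199, was read from a correlation of 0.848 with the ratios computed here for the empty-vector array. Its median there is -0.03, how it was centred and background-corrected is unknown, and it served as an alternative. The array has 1760 spots, of which 37 are blank, 325 carry Beta actin and 24 marked as poor were left out.

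Background was corrected by normexp (offset 50) and each array centred by loess over intensity (span 0.3, 4 iterations, blank and Beta actin spots without weight), in R 4.3.3 with limma 3.58.1. Spots of a name were averaged, and log2 ratios of Cy5 over Cy3 taken with no dye term. A feature was above blank when its net signal exceeded the blank mean by 3 SD: 1 (SFB1 posphatase) was not, in either channel, and it could not pass. A feature passed at 2-fold or more. The steps were tested on a simulated array. The spread of a single array is the scaled median absolute deviation, around their median, of the gaps between swapped arrays, divided by the square root of 2. It was 0.18 for the HMGA2 pair and 0.26 for the siHMGA2 pair, pooled as a root mean square.

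Named are all features past 2-fold, the 10 highest and 10 lowest where they add to these, and list members. Members and lists were chosen with earlier results of these data known. By symbol or alias 109 features matched 1 RefSeq gene, 7 several and 195 none, and an alias match was not checked by sequence.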

Additional observations from a re-analysis of the deposited data

Results flagged for a closer look

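Balb aldose reductase related, P9ka42a and S-100 related lay above 0 on the empty-vector array and below 0 on both HMGA2 arrays. Both kinds of cells went through the same vector and drug. Balb aldose reductase related stood 2.02 higher on the log2 scale with the empty vector than the mean of the HMGA2 arrays (1.10 against -0.93). P9ka42a stood 1.15 higher (1.09 against -0.06) and S-100 related 1.13 higher (1.08 against -0.04). The last 2 rest on HMGA2 values within 0.1 of 0, inside the single-array SD of 0.23, so their sign with HMGA2 is not settled. These differences were not tested, and the day of quantification differs in the same way as the groups.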

How the results depend on the processing

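No paired analysis was possible because the empty-vector cells have 1 array and no replicate to leave out. The 6 higher and 4 lower features were counted again under 12 alternatives, of which the centring of subgrids on Beta actin was chosen after seeing the data. Higher features numbered 3 with Beta actin centring and 3 with housekeeping centring, and 4 to 6 otherwise. Lower features numbered 22 with Beta actin centring, 18 with housekeeping centring, 2 with median centring, 2 with no background taken off, 2 with subgrids centred on Beta actin and 1 in the deposited ratios, and 3 to 5 otherwise. With Beta actin and housekeeping centring the median of all features was -0.43 and -0.36. Of the passing features 60% were higher in the main setting, against 12% with Beta actin centring, 14.3% with housekeeping centring, 75% with median centring, 71.4% with no background taken off, 44.4% with the dye term of both pairs, 75% with subgrid centring and 85.7% in the deposited ratios. No passing feature changed sign under any of these. Signal sets a limit too: 0 of the 156 dimmest features passed.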

Other observations

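The drug efflux pumps MDR1 and MoatB were named here after earlier results were known and are in no list. After loess they were at 0.21 and 0.25 on the log2 scale, both within 1.5-fold of untreated ROSE199. In the deposited ratios they were at -0.09 and -0.26. MoatB had low signal (134 with the empty vector, 195 in untreated cells) and ranged from -0.68 to 0.33 over the processing alternatives. The interferon-linked features did not run together in the RAS-transformed line: with siRNA against EGFP, Mob-1 was at 1.13 over ROSE199, while Interferon induced gene was at -1.41 and Mama at -0.68. The S100 features, past 2-fold with the empty vector, were at 2.26 (P9ka42a) and 2.63 (S-100 related) in that line. Among features in no list, Steroid sensitive gene (-0.72), the tumour suppressor LOT1 (-0.60) and Protein tyrosine phosphatase delta (-0.60) were past 1.5-fold lower with the empty vector, with spot SDs of 0.12, 0.02 and 0.04. Over the processing alternatives they ranged from -1.11 to -0.55, from -0.84 to -0.31 and from -0.87 to -0.31. Each therefore fell short of 1.5-fold in at least 1 alternative, the deposited ratios among them. On the higher side, Sex comb on midleg homolog and H-rev107 were each at 0.60 with the empty vector, while on the HMGA2 arrays the first was at -0.85 and -0.69 and H-rev107 at 1.35 and 1.31. With the empty vector they ranged from 0.19 to 0.69 and from 0.07 to 0.67 over the processing alternatives. The feature Hrev107-2 did not follow H-rev107: it was at 0.35 with the empty vector, and at 0.04 and -0.52 with HMGA2.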
